A study of Homo sapiens with 24 samples.

Results

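The 10 genes described here are LDLRAD3, a membrane receptor, its relative LDLRAD4, 6 ubiquitin ligases of the NEDD4 family (ITCH, NEDD4, NEDD4L, WWP1, WWP2 and SMURF2) and the ligase adaptors NDFIP1 and NDFIP2. They were found by their symbols in the gene column of both deposited comparison tables. All 10 are among the 58780 genes of the TPA table, and 9 of them, all but NEDD4L, are among the 13025 genes of the DMSO table. LDLRAD3 was selected on its fold changes and p-values, because it fell in both tables, so its own values are given as a description and support nothing. The remaining 9 genes were chosen as ligases, adaptors or relatives, with earlier results of these data known.

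RNA was sequenced from MyLa, a mycosis fungoides line, and HuT 78, a Sézary syndrome line, both forms of cutaneous T cell lymphoma. The 24 libraries form 8 groups of 3, one for each pairing of line, treatment and hairpin, the hairpin being shPRKCQ, directed at PRKCQ, or a non-targeting control (NTC). Cells received DMSO, the vehicle, or TPA, a phorbol ester and activator of protein kinase C, at 10 ng/ml for 24 h. For the knockdown, doxycycline at 1 µg/ml was present for at least 72 h before treatment. Whether NTC cells received doxycycline is not given in the sources used here, so drug and hairpin effects cannot be told apart. Each table sets the 6 shPRKCQ libraries of both lines against the 6 NTC libraries of the same treatment. The tables give 1 value per gene and comparison and none per library, line or expression level, so neither depth nor the spread between libraries is known here. The labels number the replicates without saying whether they were separate cultures, so within a line the p-values may measure technical spread only. Whether the authors' model included the line is not given in the sources used here. If it did not, the spread also holds the difference between lines, and changes could be missed.

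In the HECT family of ubiquitin ligases, ubiquitin passes from an E2 enzyme to a cysteine of the ligase and from there to the substrate. Members of the NEDD4 branch find their targets through WW domains, which bind short proline-rich PY motifs, either on the substrate itself or on a membrane adaptor such as NDFIP1. In T cells these ligases are known for restraining activation: ITCH marks JUNB, phospholipase C gamma 1 and protein kinase C theta, the product of PRKCQ, and its loss in mice causes inflammation dominated by T helper 2 cells. LDLRAD3 belongs to the low-density lipoprotein receptor family, carries PY motifs in its cytoplasmic tail, and is reported to bind ITCH and stimulate its self-ubiquitination.

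PRKCQ, the knocked-down gene, was at -2.11 in DMSO and -2.08 in TPA per the authors' deposited tables, which puts it at 23.1% and 23.7% of the NTC level. LDLRAD3 was lower in shPRKCQ cells with vehicle and with TPA. Its log2 fold change was -1.29 in DMSO and -1.08 in TPA per the authors' deposited tables, where a negative value means lower in shPRKCQ, since PRKCQ itself is negative. Computed from the authors' deposited table, LDLRAD3 RNA stood at 41.0% of the NTC level in DMSO, with an implied 95% interval of 29.7% to 56.6%. In TPA it stood at 47.2%, with an interval of 34.9% to 63.8%. The interval comes from a standard error implied by the deposited p-value and fold change, 0.24 in DMSO and 0.22 in TPA on the log2 scale, under the assumption of a normal test statistic. Had the authors shrunken the fold changes but not the p-values, this and the other implied intervals would be too narrow. The values behind its choice were adjusted p-values of 0.000391 in DMSO and 0.00234 in TPA per the authors' deposited tables. By p-value it was in place 2 of 13007 genes tested in DMSO and in place 9 of 19417 in TPA. By fold change it was in place 15 and 33 from the lowest. Of the 13007 genes tested in both tables, 3 had fold changes at or below its own in both: LDLRAD3 itself, the knocked-down PRKCQ and DNAJC5B, a heat shock protein co-chaperone. DNAJC5B was at -2.01 in DMSO and -1.16 in TPA per the authors' deposited tables without passing in either (adjusted p = 0.404 and 0.242).

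**Figure D1:**
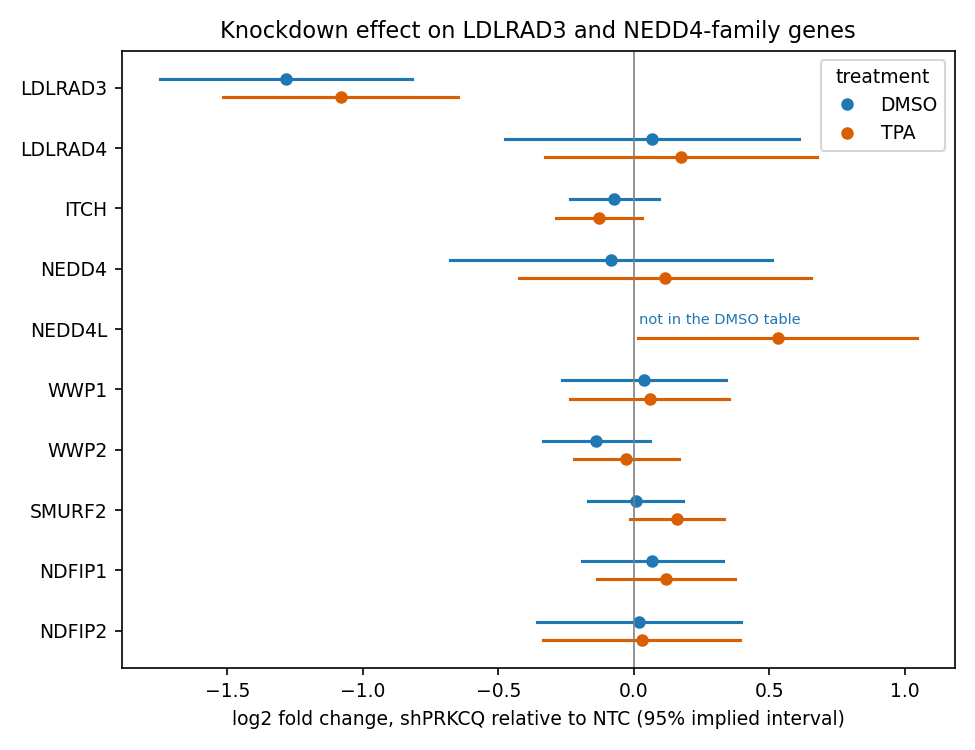
Log2 fold change of each of the 10 genes (x axis, shPRKCQ relative to NTC) in DMSO (blue) and TPA (orange), with bars for the implied 95% interval. LDLRAD3 lies at -1.29 and -1.08, while the points of the other genes lie between -0.14 and 0.53.

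The LDLRAD3 gene (ENSG00000179241.12) spans 288 kb on the plus strand of chromosome 11, from 35943981 to 36232136 in GRCh38, and GENCODE release 29 gives it 6 transcripts, 3 of them protein-coding, with up to 6 exons. The sequence before its start is shown beside that of ITCH because the pair shares a reported interaction but only LDLRAD3 passed in these tables. Both stretches are upstream of every annotated start in GENCODE release 29, are written 5′ to 3′ on the plus strand, and come from RefSeq promoter sequences of GRCh38.p14, at chr11:35943812-35943980 and chr20:34363023-34363234. Capitals mark matches on either strand to an AP-1 motif (TGANTCA), an NFAT core (GGAAA), the NF-kappaB motif or a GC box (GGGCGG). AP-1, NFAT and NF-kappaB act downstream of protein kinase C theta.
LDLRAD3: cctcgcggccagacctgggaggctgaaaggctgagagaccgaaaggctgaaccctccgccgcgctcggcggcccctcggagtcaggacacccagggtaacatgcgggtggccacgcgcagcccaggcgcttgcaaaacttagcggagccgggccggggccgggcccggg
ITCH: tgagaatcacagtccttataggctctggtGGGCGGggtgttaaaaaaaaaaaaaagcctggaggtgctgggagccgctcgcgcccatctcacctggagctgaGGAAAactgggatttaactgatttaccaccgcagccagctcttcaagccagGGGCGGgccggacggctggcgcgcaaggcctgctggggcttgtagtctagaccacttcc
The LDLRAD3 stretch of 169 bases held none of the 4 motifs, and the ITCH stretch of 212 bases held 1 NFAT core and 2 GC boxes. In the 250 bases before its RefSeq start, a window that reaches past the GENCODE start, LDLRAD3 had 2 GC boxes and still no AP-1, NFAT or NF-kappaB match. Among all 35116 RefSeq promoter windows of that length, 6.57% held the AP-1 motif, 55.6% the NFAT core, 0.527% the NF-kappaB motif and 42.6% the GC box. The LDLRAD3 window had a GC content of 76.4%, against a median of 58% over those windows. A high GC content was not particular to it. The single windows of SMURF2, NDFIP1, NDFIP2 and ITCH had 82%, 67.2%, 62.4% and 58.4%, with 4, 3, 2 and 2 GC boxes. Windows of LDLRAD4 ran from 43.2% to 79.2%, those of NEDD4 from 36% to 78% and those of WWP2 from 55.2% to 60.4%. NEDD4L had 5 such windows, with GC contents from 41.2% to 50.8% and no GC box in any. Promoter windows were matched for 9 of the 10 genes, and WWP1 was not used here. A match describes letters and not a binding site, and a window without one says nothing about the factor.

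Of the 10 genes, LDLRAD3 alone passed an adjusted p of 0.05, in both tables. Over all genes tested 0.108% passed in DMSO (0.0769% lower and 0.0308% higher in shPRKCQ) and 0.113% in TPA (0.0876% lower and 0.0258% higher), and because the choice of LDLRAD3 used these contrasts, nothing is read from its count. Of the other genes, 0 of 8 tested in DMSO and 0 of 9 tested in TPA passed, and their adjusted p-values were 0.99993 and 0.99998 per the authors' deposited tables. At an unadjusted p under 0.05 the counts were 0 of 8 in DMSO and 1 of 9 in TPA, beside 3.04% of all genes tested in DMSO (1.67% lower and 1.37% higher) and 3.99% in TPA (1.93% lower and 2.05% higher). Their median log2 fold change was 0.013 in DMSO and 0.12 in TPA, beside 0.0075 and 0.011 over all genes tested.

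LDLRAD4, the relative of LDLRAD3 that dampens TGF-beta signalling by way of SMAD2 and SMAD3, was at 0.07 in DMSO and 0.18 in TPA per the authors' deposited tables (unadjusted p = 0.808 and 0.494). Its implied intervals ran from 71.9% to 153% of the NTC level in DMSO and from 79.7% to 160% in TPA. Both are wide enough to hold a moderate change in either direction. LDLRAD4 (ENSG00000168675.18) spans 435 kb on chromosome 18, 13217498 to 13652755, with 19 transcripts, and the table gives 1 value over all of them.

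ITCH (ENSG00000078747.14, chromosome 20, 34363235 to 34511393, plus strand) was among the most tightly measured of the ligases. Its log2 fold change was -0.07 in DMSO and -0.13 in TPA per the authors' deposited tables (unadjusted p = 0.392 and 0.112). From these values ITCH RNA stood at 95.2% of the NTC level in DMSO, with an interval of 85.0% to 107%, and at 91.5% in TPA, with an interval of 81.9% to 102%. A fall of ITCH RNA to below 81.9% of the NTC level lies outside both intervals. That holds only if the fold changes were not shrunken, which is not known here. The tables measure RNA only, so ITCH protein, its activity and its self-ubiquitination are not covered.

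NEDD4, which promotes T cell activation by degrading the ligase CBLB, had the largest implied standard error on the log2 scale among the member ligases in both tables. It was at -0.08 in DMSO and 0.12 in TPA per the authors' deposited tables (unadjusted p = 0.784 and 0.674), with intervals of 62.5% to 143% and 74.5% to 157% of the NTC level. NEDD4L, its closest relative and the ligase that removes epithelial sodium channels from the membrane, had the largest value of the 9 genes. In TPA it was at 0.53 per the authors' deposited table, with RNA at 144% of NTC and an interval of 101% to 206% (unadjusted p = 0.0431). This did not pass over all genes (adjusted p = 0.99998), and among all genes tested in TPA 2.05% had a positive value with an unadjusted p under 0.05. NEDD4L is not in the DMSO table, so whether the same value holds with vehicle is not analysed here. With 38 transcripts in GENCODE release 29 it has the most complex annotation of the 10 genes, spanning 357 kb on chromosome 18 from 58044367 to 58401540.

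WWP1 and WWP2, paralogous ligases that act among others on KLF and OCT4 transcription factors, lay close to 0. WWP1 was at 0.04 and 0.06 in DMSO and TPA per the authors' deposited tables (unadjusted p = 0.802 and 0.692). WWP2 was at -0.14 and -0.03 per the authors' deposited tables (unadjusted p = 0.17 and 0.778). The WWP2 interval was 79.2% to 104% of the NTC level in DMSO and 85.8% to 112% in TPA. SMURF2, which is brought to TGF-beta receptors by SMAD7, was at 0.01 in DMSO and 0.16 in TPA per the authors' deposited tables (unadjusted p = 0.931 and 0.071). SMURF2 thereby stood at 101% and 112% of the NTC level, with intervals of 89.0% to 114% and 99.1% to 126%. A pseudogene copy, SMURF2P1, could take a share of its reads; it was at 0.17 in TPA per the authors' deposited table, where it has no adjusted p.

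The adaptors NDFIP1 and NDFIP2 sit in Golgi and endosomal membranes, hold PY motifs and open the autoinhibited ligases; NDFIP1 helps ITCH to reach JUNB in T cells. NDFIP1 was at 0.07 in DMSO and 0.12 in TPA per the authors' deposited tables (unadjusted p = 0.609 and 0.359). NDFIP2 was at 0.02 and 0.03 per the authors' deposited tables (unadjusted p = 0.923 and 0.874). Their intervals together covered 78.0% to 131% of the NTC level in DMSO and 79.3% to 131% in TPA.

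**Figure D2:**
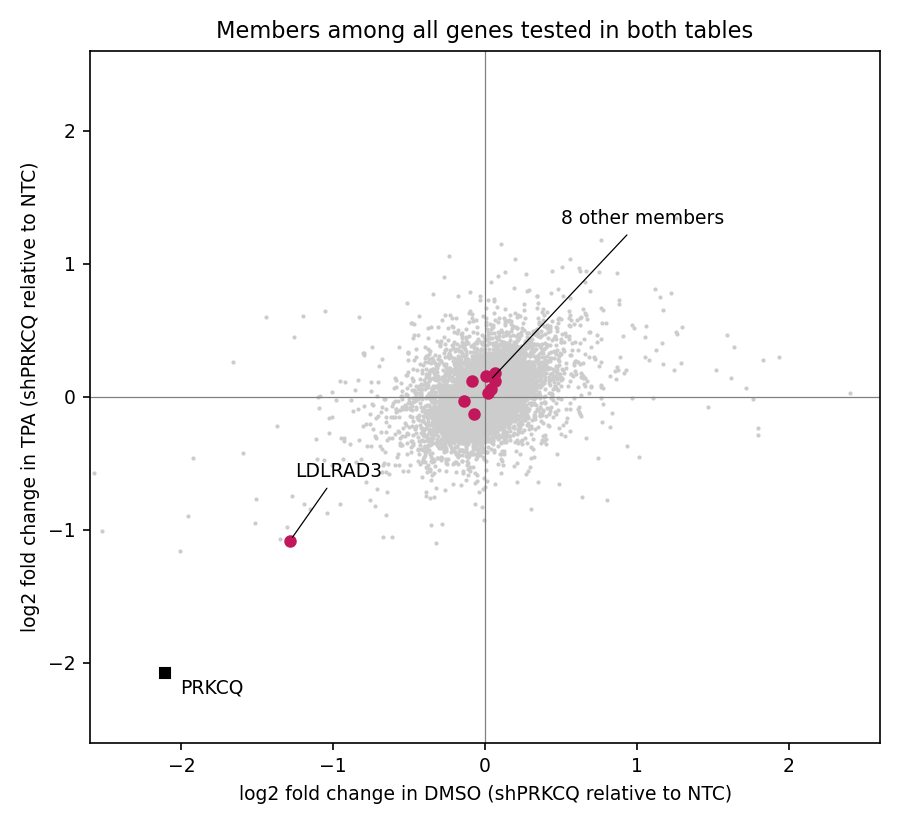
Log2 fold change in DMSO (x axis) against TPA (y axis) for the genes tested in both tables (grey, with 3 of 13007 outside the axes), the 9 members that both tables hold (red circles) and PRKCQ (black square). LDLRAD3 lies at -1.29 and -1.08, and the other 8 lie within 0.2 of 0 on both axes.

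Whether the knockdown effect differed between vehicle and TPA was examined by the difference of the fold changes over their implied standard errors, adjusted over the 13007 genes of both tables. The tables share no library, although cultures of both treatments could be related. For LDLRAD3 the effect in TPA minus that in DMSO was 0.20 on the log2 scale, with an interval of -0.43 to 0.84. Its selection used both fold changes, and a gene chosen for falling in both tables tends to have a small difference between them, so this value is a description and no test of it is given. Of the other 8 genes, 7 had a higher value in TPA and ITCH a lower one, with differences from -0.06 to 0.20; over all 13007 genes, 6174 were higher and 6833 lower in TPA. None of the 8 passed, at unadjusted p-values from 0.228 (SMURF2) to 0.967 (NDFIP2). Over all genes 0% passed this difference test, and 0.438% had an unadjusted p under 0.05. That share lies far below what the 0.05 threshold gives when nothing differs, so the test was conservative. It could miss real differences, and the lack of calls among the 8 genes does not show equal effects. Why it was conservative was not tested. The fold changes of the TPA table may have been shrunken by the authors, since 2910 of its 34085 values are the same 0.000537, so the fold changes of the tables may not be on 1 scale.

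Outside the 10 genes, 102 genes of 8 related lists were examined, of which 78 were tested in DMSO and 97 in TPA. PRKCQ and NOTCH1 passed in DMSO and PRKCQ alone in TPA. Both are counted on the list of reported substrates of these ligases, and that list was drawn up with earlier results of these data known. At an unadjusted p under 0.05 there were 4 of 78 genes in DMSO and 8 of 97 in TPA, beside 3.04% and 3.99% of all genes tested. These counts include NOTCH1 and PRKCQ, the target of the hairpin. At the adjusted threshold 0.108% of all genes tested passed in DMSO and 0.113% in TPA. A list of this kind with 0 calls is therefore usual, and nothing is read from it.

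The remaining NEDD4-family ligases gave no call. SMURF1, the counterpart of SMURF2 in TGF-beta and BMP signalling, was at -0.09 and -0.08 in DMSO and TPA per the authors' deposited tables (unadjusted p = 0.229 and 0.278). HECW2 was at 0.26 and -0.17 per the authors' deposited tables (unadjusted p = 0.509 and 0.583), and HECW1, not in the DMSO table, was at 0.10 in TPA. Of 19 further HECT ligases, 17 had a test in DMSO, with a median of 0.07, and 19 in TPA, with a median of 0.04, beside 0.0075 and 0.011 over all genes tested, and 0 passed an adjusted or an unadjusted p of 0.05 in either table. Among them HECTD2 had the largest values, 0.46 and 0.44 per the authors' deposited tables (unadjusted p = 0.122 and 0.103). AREL1, a ligase that counters cell death, was at 0.07 and 0.09 per the authors' deposited tables.

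Other PY-motif adaptors and binding partners of these ligases, 15 tested in DMSO and 17 in TPA, had medians of -0.0002 and 0.05 with 0 called. PMEPA1, a TGF-beta-induced membrane adaptor of NEDD4 ligases, was at 1.03 in TPA per the authors' deposited table (unadjusted p = 0.0187, adjusted p = 0.996), and it is not in the DMSO table. WBP1L was at -0.27 in DMSO and -0.16 in TPA per the authors' deposited tables (unadjusted p = 0.0513 and 0.237). WBP1 was at -0.0002 and 0.29 per the authors' deposited tables (unadjusted p = 0.999 and 0.0627).

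Among the E1 and E2 enzymes that supply HECT ligases with ubiquitin, 7 of 9 values were positive in DMSO and 7 of 10 negative in TPA, with medians of 0.03 and -0.02 and 0 called. Over all genes tested 52.3% were positive in DMSO and 53.0% in TPA, and the list's difference in sign between treatments was not tested. UBE2E2, an E2 enzyme of the UBE2E group, had the smallest p-value, at -0.53 in TPA per the authors' deposited table (unadjusted p = 0.00252, adjusted p = 0.422), and is not in the DMSO table. UBE2E1 was at -0.05 in DMSO and -0.30 in TPA per the authors' deposited tables (unadjusted p = 0.756 and 0.0452). UBE2D2 was at 0.12 and 0.09 per the authors' deposited tables (unadjusted p = 0.13 and 0.215).

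**Figure D3:**
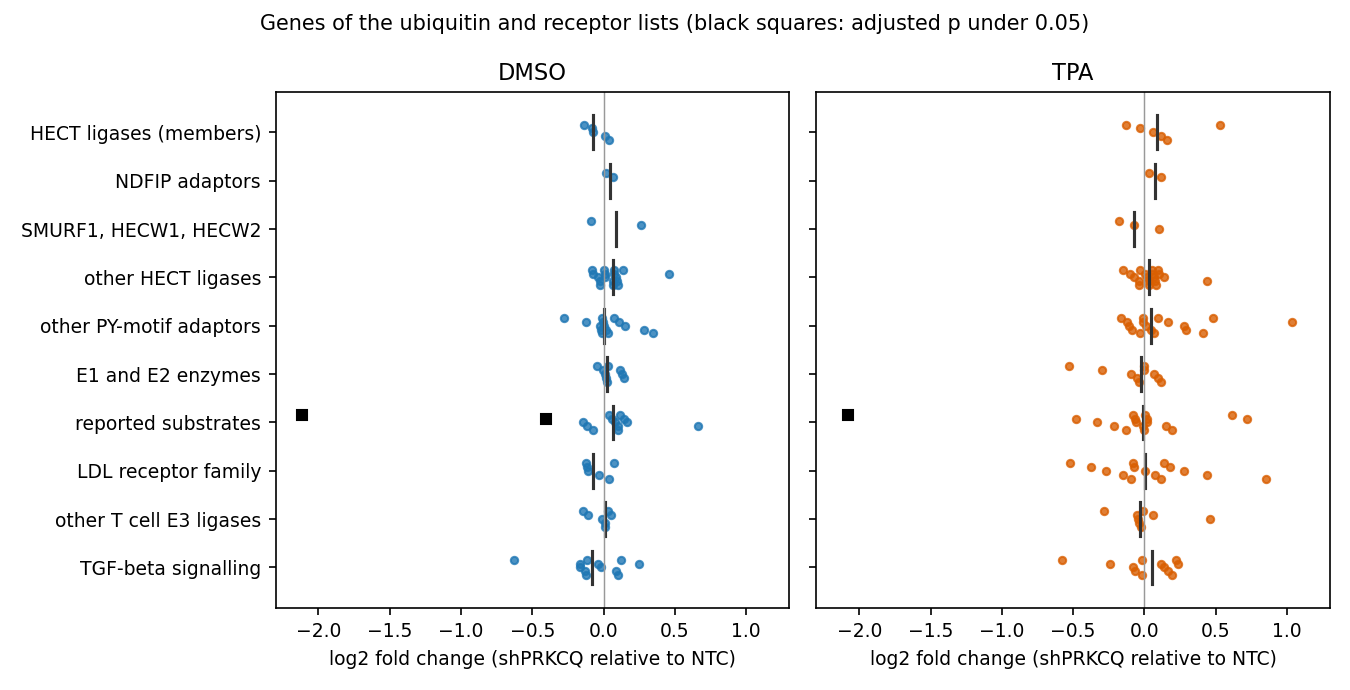
Log2 fold changes of the tested genes of each list (x axis, shPRKCQ relative to NTC) in DMSO (left) and TPA (right), with 1 circle per gene, vertical bars for list medians and black squares for an adjusted p under 0.05. Black squares appear only in the row of reported substrates: PRKCQ at -2.11 and NOTCH1 at -0.40 in DMSO, and PRKCQ at -2.08 in TPA.

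On the list of reported substrates of ITCH and NEDD4 ligases, 2 of 14 genes tested passed in DMSO and 1 of 17 in TPA, all lower, with medians of 0.07 and -0.01, beside 0.108% and 0.113% of all genes called. PRKCQ is the target of the hairpin, and apart from it the calls were NOTCH1 in DMSO and 0 genes in TPA. NOTCH1, a receptor that ITCH directs to the lysosome, fell by 0.40 on the log2 scale in DMSO and was at -0.33 in TPA per the authors' deposited tables (adjusted p = 0.0483 and 0.207). JUN, an AP-1 subunit, was at 0.66 and 0.62 per the authors' deposited tables (unadjusted p = 0.0105 in each, adjusted p = 0.99993 and 0.832). KLF2, a quiescence factor of T cells, was at 0.72 in TPA per the authors' deposited table (unadjusted p = 0.0777). SMAD2 was at 0.10 and 0.19 per the authors' deposited tables (unadjusted p = 0.405 and 0.101).

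Other receptors of the low-density lipoprotein receptor family gave no call: 0 of 6 tested in DMSO and 0 of 15 in TPA passed, with medians of -0.07 and 0.0034. The shares of all genes tested that passed were 0.108% and 0.113%, so 0 calls are usual for this list and for those that follow. LRP5, a Wnt co-receptor, was at 0.85 in TPA per the authors' deposited table (unadjusted p = 0.0156, adjusted p = 0.963). VLDLR was at -0.52 in TPA per the authors' deposited table (unadjusted p = 0.16). Ubiquitin ligases of other families that restrain T cells gave 0 calls among 7 tested in DMSO and 8 in TPA, with medians of 0.0070 and -0.03. PELI1 was at 0.0070 and -0.28 per the authors' deposited tables (unadjusted p = 0.966 and 0.0703), and DTX1, which acts in Notch signalling, was at 0.46 in TPA (unadjusted p = 0.222). Genes of TGF-beta signalling, on which LDLRAD4 and the SMURF ligases act, gave 0 calls of 12 in each table, with medians of -0.08 and 0.05. SMAD4, the shared partner of the receptor SMADs, was at 0.25 in DMSO and 0.12 in TPA per the authors' deposited tables (unadjusted p = 0.0375 and 0.322). LTBP1, which stores latent TGF-beta in the matrix, was at -0.63 and -0.58 per the authors' deposited tables (unadjusted p = 0.0996 and 0.0793).

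None of the tested genes next to LDLRAD3 on chromosome 11 passed. Within 1000 kb of its start, GENCODE release 29 lists 33 other genes, 11 of them protein-coding. Of the 33, 4 had a test in DMSO and 9 in TPA, with 0 called, beside 0.108% and 0.113% of all genes tested. Unadjusted p-values under 0.05 numbered 0 of 4 in DMSO and 1 of 9 in TPA, beside 3.04% and 3.99% of all genes tested. On the side before LDLRAD3, TRIM44, whose start lies 281 kb away, was at -0.02 in TPA per the authors' deposited table, with an implied interval that reaches no lower than -0.39. Farther off, SLC1A2, a glutamate transporter, was at -0.37 and the sense-intronic transcript AL133330.1 at 0.13 in TPA per the authors' deposited table. In DMSO CD44, an adhesion receptor, was tested on that side and was at -0.05 per the authors' deposited table. On the other side COMMD9, at 345 kb, was at -0.07 in DMSO and -0.20 in TPA per the authors' deposited tables (unadjusted p = 0.766 and 0.37). PRR5L, a component of the mTORC2 kinase complex at 352 kb, was at 0.26 and 0.59 per the authors' deposited tables (unadjusted p = 0.132 and 0.000272, adjusted p = 0.99993 and 0.126). TRAF6, at 566 kb, was at -0.11 and -0.05 per the authors' deposited tables. Of the 5 genes that overlap LDLRAD3, none has an adjusted p in either table, and the library kit kept the strand, per the labels' protocols, though whether counting used it is not given in the sources used here. On the opposite strand RMDN1 overlaps WWP1 and CEP95 overlaps SMURF2, and without strand their reads could not be separated. RMDN1 was at 0.04 and 0.02, and CEP95 at -0.11 and -0.07, per the authors' deposited tables, with 0 called.

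**Figure D4:**
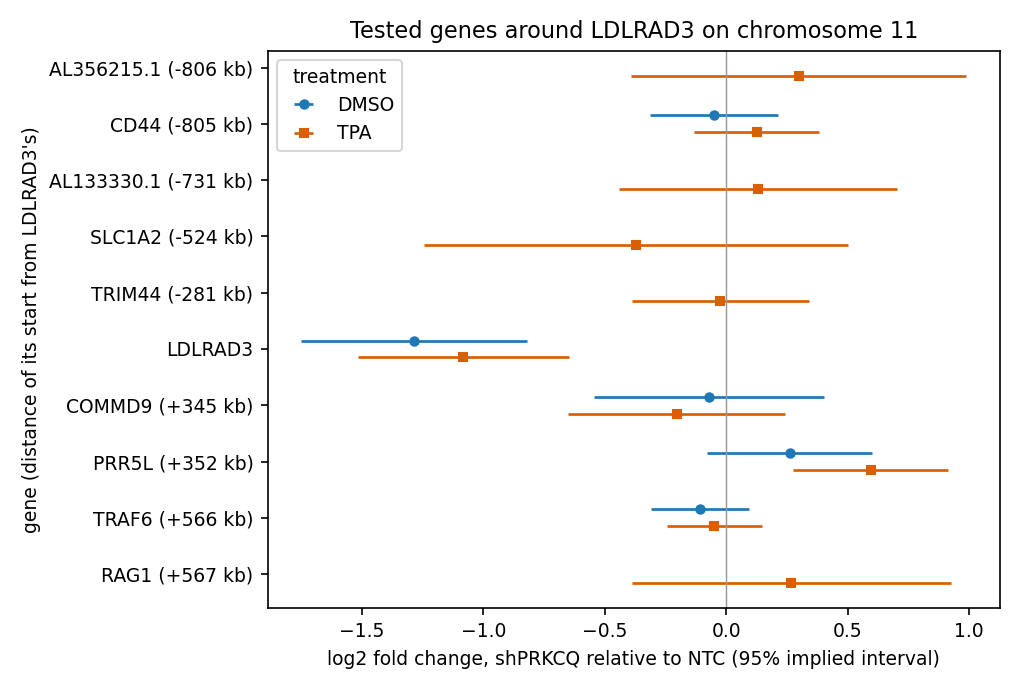
Log2 fold change (x axis, shPRKCQ relative to NTC, bars for the implied 95% interval) of the tested genes whose start lies within 1000 kb of that of LDLRAD3, in order along the chromosome with their distance in kb, in DMSO (blue circles) and TPA (orange squares). LDLRAD3 lies at -1.29 and -1.08, and PRR5L at 0.59 in TPA lies on the opposite side of 0.

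Genes whose pair of fold changes was nearest to that of LDLRAD3 were ranked by Euclidean distance over the 2 comparisons, as a description. The nearest was RORA, a nuclear receptor of T helper 17 and innate lymphoid cells, at -1.35 in DMSO and -1.07 in TPA per the authors' deposited tables (distance 0.067). Then came PRKACB, a catalytic subunit of protein kinase A, at -1.31 and -0.98, and UBBP4, a ubiquitin B pseudogene, at -1.52 and -0.95 per the authors' deposited tables. UBBP4 is nearly identical to ubiquitin genes, so its reads are uncertain. MTUS1 and ROBO1 followed at -1.15 and -0.84, and at -1.19 and -0.80, per the authors' deposited tables. None of these 5 passed in either table, and their implied standard errors in DMSO, 0.39 to 0.50, were larger than the 0.24 of LDLRAD3. Ranked by distance of z-values instead, the nearest were EAF1, RBM47, CCDC32, NOTCH1 and SFXN1, with 0 of the 5 shared. Of these, EAF1 (adjusted p = 0.00422 and 0.000546) and RBM47 (adjusted p = 0.00657 and 0.00518) passed in both DMSO and TPA per the authors' deposited tables, as LDLRAD3 did. CCDC32 passed in TPA alone (adjusted p = 0.0631 in DMSO and 0.00124 in TPA), NOTCH1 in DMSO alone and SFXN1 in neither.

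Expression levels of lineage markers cannot be read from these tables. Of 9 T cell markers, 5 were tested in DMSO and 8 in TPA; CD2, CD3E and CD4 are not in the DMSO table, so absence from it is not a measure of expression. Of 9 B cell, myeloid and epithelial or stromal markers, 2 were tested in DMSO and 5 in TPA. None of either list passed, and CD3G, a T cell receptor component, was at 0.22 and 0.21 in DMSO and TPA per the authors' deposited tables (unadjusted p = 0.177 and 0.197). TRBC1 was at 0.40 and 0.37, and TRAC at -0.12 and 0.19, both T cell receptor chains, per the authors' deposited tables (unadjusted p = 0.434 and 0.325, and 0.658 and 0.439). KRT5, a keratin, was at 0.77 in TPA per the authors' deposited table (unadjusted p = 0.0437, adjusted p = 0.99998). COL1A1, a collagen, was at 0.31 with vehicle and -0.46 under TPA, and CD79A, of the B cell receptor, at 0.36 and 0.16, per the authors' deposited tables (unadjusted p = 0.492 and 0.216, and 0.186 and 0.534). In these cultures fewer cells with a transcript and less transcript per cell cannot be told apart.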

How the data were processed

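Bulk RNA sequencing was analysed through 2 comparison tables. Each deposited table holds, for every gene, its log2 fold change with a raw and a corrected p-value, per the file headers. Tools named without roles in the submitters' processing notes are DESeq2 1.18.1, STAR 2.5.3a and RSEM 1.3.0, with GRCh38 as the build; no source used here gives the model formula or any shrinkage. Of the TPA genes 19417 have an adjusted p, and of the DMSO genes 13007. Genes with an adjusted p were counted as tested and called at 0.05.

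For each gene a z-value was taken from the p-value and the sign, an implied standard error as fold change over z, and a 95% interval from it. Differences between tables were adjusted by Benjamini-Hochberg; the code was tested on simulated data. All 58780 identifiers matched GENCODE release 29. From each list, called genes and up to 3 more with the smallest p were named, plus the 3 nearest tested neighbours on each side and the 5 most similar genes. Some genes that this rule names are not reported here. Members and lists were chosen with earlier results of these data known. The design's protein comparison was not run. Calculations used pandas 2.3.3, scipy 1.17.1, numpy 2.4.6 and matplotlib 3.10.9 under Python 3.11.15.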

Additional observations from a re-analysis of the deposited data

How the results depend on the processing

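LDLRAD3 was the 1 member called in each table at an adjusted p of 0.05, 0.01 and 0.1, when the log2 fold change had to reach 0.5 in size, without a filter on low genes, over the genes of both tables alone, and with p-values rescaled by the robust SD of z (0.753 in DMSO and 0.84 in TPA). Because LDLRAD3 was selected on these same values, its calls under these settings are a description and support nothing. For the other members, adjusted p-values over 50 alternatives ran from 0.453, that of NEDD4L with rescaled p-values, to 0.99999, with 0 under 0.05. Not all of these settings are separate checks. In DMSO the 13007 genes with a p-value were all tested, and all were tested in TPA too. There, the settings without a filter and over the genes of both tables therefore repeat the main adjustment and could not change a call, for LDLRAD3 as well. The difference between treatments passed for 0 of the other members as computed, on z-values and rescaled, where 24 of all genes passed in place of 0. Of listed pathway genes, rescaled p-values, an alternative chosen after seeing the data, called 2 in TPA in place of 1 by adding NOTCH1, and 2 in DMSO as before; the cause was not tested. Ranked by z-values, 0 of the 5 genes most like LDLRAD3 were shared. Within 500 kb of LDLRAD3, 0 neighbours were called. No paired analysis was possible because each table gives fold changes over all its libraries at once, without values by library; left-out replicates, other normalizations and count tools were not run for that reason. The unknown depth leaves its limits unassessed.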
